A study of Homo sapiens with 15 samples.

Results

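The genes described here are 35 genes of protein folding, quality control and entry in the endoplasmic reticulum (ER) and of the unfolded protein response (UPR). They were chosen by symbol for what they are known to do, as chaperones, folding enzymes, degradation factors, sensors, transcription factors, translocon subunits and a vesicle coat subunit. Earlier results of these data were known when they were chosen. All 35 were found in both deposited tables, which list 59428 genes for IMR90 and 59412 genes for Huh7. The study aimed to deplete THBD, which encodes thrombomodulin, a receptor for thrombin on the cell surface, in senescent cultured cells. It asked whether THBD is needed for senescence, and counted RNA reads per gene. The level of THBD in each group is given below. IMR90, a human lung fibroblast line, was compared in 3 groups of 3 libraries each: shTHBD set 1, shTHBD set 2 and a control with a non-targeting short hairpin RNA (shRNA). All 9 IMR90 libraries came from cells whose treatment label names senescence induced by HRAS G12V, an oncogenic form of the signalling protein HRAS. Replicative senescence by serial passage also appears in the growth protocol, and whether it applies here is not stated. Huh7, a human carcinoma line derived from hepatocytes, was compared in 2 groups of 3 libraries each, shTHBD and non-targeting control, all from cells made senescent with palbociclib, an inhibitor of the kinases CDK4 and CDK6. What the set numbers stand for is not stated, there was no proliferating group, and the labels do not say that the 3 libraries of a group came from separate cultures, so p-values measure a spread between libraries that may be technical.

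Proteins that enter the secretory pathway fold in the ER with the help of HSPA5 (BiP), its cochaperones, disulfide isomerases and lectin chaperones. When unfolded proteins accumulate, 3 membrane sensors start the UPR: ERN1 (IRE1) splices the mRNA of the transcription factor XBP1, ATF6 is cut to release a transcription factor, and EIF2AK3 (PERK) slows translation and raises ATF4. XBP1 and ATF6 bind short elements in promoters and raise chaperones and the machinery of ER-associated degradation (ERAD), which returns misfolded proteins to the cytosol. Fibroblasts, which secrete collagen, and hepatocytes, which secrete plasma proteins, carry a large ER. Gene counts show neither the splicing of XBP1 mRNA nor the cutting of ATF6, so the data below are levels of mRNA and not of UPR signalling.

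The promoters are shown because UPR factors bind short elements there. The genes were not chosen by promoter sequence, but known UPR target genes were among those chosen. The shares of genes with an element are therefore not independent of the choice. Promoter windows of 300 bases, from 250 before to 50 after an annotated start, were taken from RefSeq on build GRCh38.p14. They were found for 31 of the 35 genes, in 41 windows; PDIA3, SEC24D, DERL1 and DERL3 had no entry. Each window was searched on both strands for the ER stress element (ERSE: CCAAT, 9 bases of any letter, then CCACG), for ERSE-II (ATTGG, 1 base of any letter, then CCACG) and for the core of the UPR element (UPRE: TGACGTGG). ERSE was in the windows of 7 of the 31 genes (22.6%), against 25 of all 27305 genes in the table (0.0916%). ERSE-II was in 3 genes, against 19 of all genes (0.0696%), and the UPRE core was in 3 genes, against 253 of all genes (0.927%). Any of the 3 elements was in 12 of the 31 genes (38.7%), against 295 of all genes (1.08%). A match describes letters and not binding, and a window without a match says nothing of the factors. The stretches that hold the elements in 8 genes the results turn on are printed on the strand of the gene, with the bases of the elements in capitals.
HSPA5 (chr9:125241379-125241421, minus strand): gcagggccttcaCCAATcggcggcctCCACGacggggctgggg
HSP90B1 (chr12:103930204-103930351, plus strand): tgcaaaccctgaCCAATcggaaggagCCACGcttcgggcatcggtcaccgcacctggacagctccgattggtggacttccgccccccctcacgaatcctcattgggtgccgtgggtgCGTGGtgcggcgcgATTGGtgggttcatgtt
HYOU1 (chr11:119057262-119057405, minus strand): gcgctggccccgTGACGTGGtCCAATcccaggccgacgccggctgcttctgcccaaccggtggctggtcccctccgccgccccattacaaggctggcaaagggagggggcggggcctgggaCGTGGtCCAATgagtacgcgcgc
SDF2L1 (chr22:21642102-21642136, plus strand): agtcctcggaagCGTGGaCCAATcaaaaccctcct
DNAJC10 (chr2:182716120-182716151, plus strand): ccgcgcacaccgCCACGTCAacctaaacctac
HERPUD1 (chr16:56932013-56932047, plus strand): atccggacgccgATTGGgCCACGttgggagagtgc
CALR (chr19:12938372-12938414, plus strand): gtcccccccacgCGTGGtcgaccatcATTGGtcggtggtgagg
XBP1 (chr22:28800591-28800633, minus strand): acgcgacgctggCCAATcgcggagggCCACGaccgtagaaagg
The ERSE of HSPA5 began at position -66 from the start and that of XBP1 at -52. HSP90B1 had 2 ERSE matches, at -194 and -89 in opposite orientation. HYOU1 had a UPRE core at -188 that overlapped an ERSE-II match at -185, and another ERSE-II match at -79. SDF2L1 and HERPUD1 held ERSE-II, DNAJC10 held the UPRE core on the opposite strand, and CALR held an ERSE at -225. The 4 other genes with a match were CRELD2, PDIA6 and CANX, with ERSE, and SSR3, with the UPRE core.

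**Figure D1:**
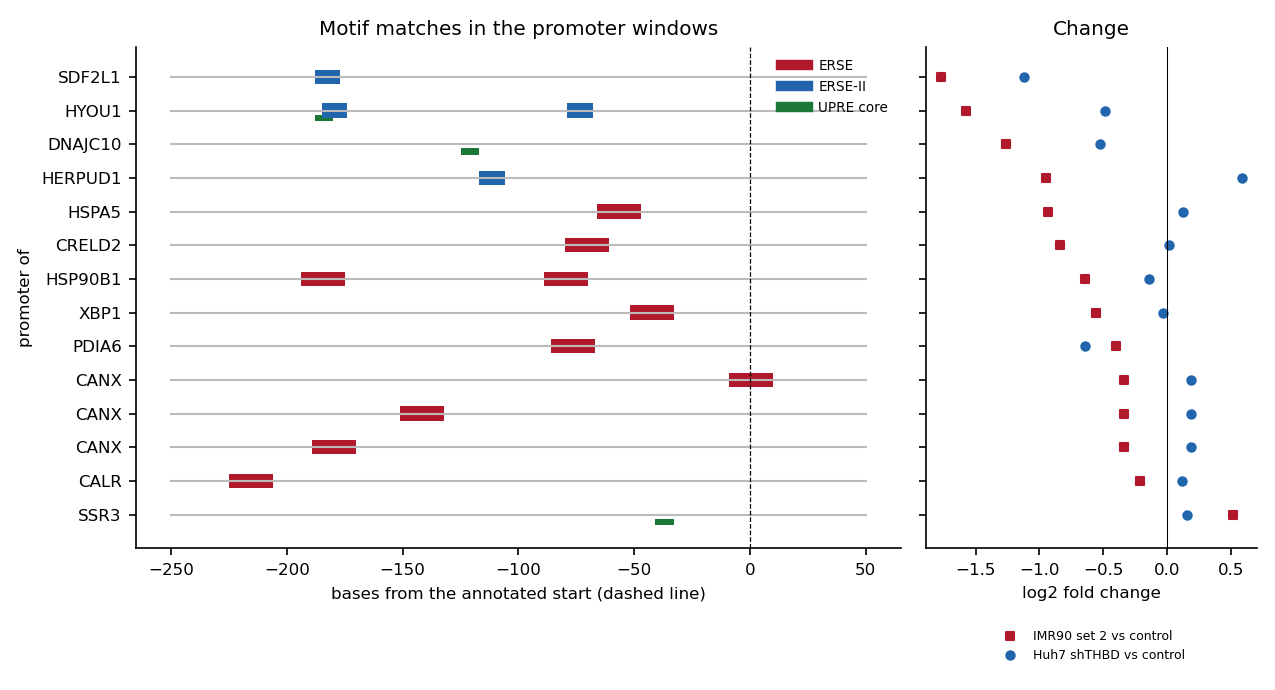
Left, matches to 3 promoter elements by distance in bases from the annotated start for the 12 genes that hold one (CANX has 3 listed starts that share 1 site, drawn 3 times); right, the log2 fold change of the same gene in IMR90 set 2 (squares) and in Huh7 shTHBD (circles), each against its control. SDF2L1, HYOU1 and DNAJC10 lie lowest in set 2, and SSR3 is the one gene of the 12 that lies above 0 there.

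Total gene counts ran from 18256773 to 20444521 in libraries labelled set 1, from 18366369 to 19133045 in set 2 and from 18682662 to 21509229 in the IMR90 control. In Huh7 they ran from 22479132 to 25236178 with shTHBD and from 19328182 to 20020683 in the control. THBD had 39.4, 36.6 and 37.3 counts per 1000000 counts of the library (CPM) in libraries labelled set 1, 10.5, 11.5 and 11.4 CPM in set 2 and 16.5, 18.8 and 20.0 CPM in the IMR90 control. The target of the hairpin was thus above the control in libraries labelled set 1, at 1.09 ± 0.076 on the log2 scale (adjusted p = 1.21e-20), and below it in set 2 (-0.81 ± 0.090, adjusted p = 1.49e-12). In Huh7, THBD had 0 counts in the 3 shTHBD libraries, which allows up to 0.119 to 0.133 CPM at 3 counts. The Huh7 control had 0, 0 and 0.310 CPM (0, 0 and 6 counts), so THBD could not check the Huh7 labels. A depletion of THBD RNA thus cannot be seen in Huh7, and the Huh7 effects below are differences between labelled groups. The summed level of 8 fibroblast markers was 4449 to 4557 CPM in libraries labelled set 1, 12457 to 12630.2 CPM in set 2 and 6226 to 6317 CPM in the IMR90 control. Of the 8, 6 fell and 1 rose in libraries labelled set 1 (-1.05 to 0.33 on the log2 scale), and 6 rose and 2 fell in set 2 (-0.95 to 2.30), where COL1A1 alone held 4357 to 4436 CPM of the sum. In IMR90, ALB and HNF4A stayed at or below 0.1 CPM and APOB and TTR were at 0. Hepatocyte markers there summed to 132 to 142 CPM in libraries labelled set 1, nearly all from SERPINA1, to 11.5 to 13.2 CPM in set 2 and to 15.9 to 17.9 CPM in the control. In Huh7, all 8 hepatocyte markers fell, to a sum of 2352 to 2518 CPM with shTHBD against 4812 to 4938 CPM in the control. There 5 of 7 fibroblast markers tested rose, to 1681 to 1743 CPM with shTHBD against 1059 to 1107 CPM in the control; THY1 was at 0 with shTHBD. The 6 epithelial and cholangiocyte markers, in IMR90 nearly all from KRT18 and SOX9, summed to 118 to 124 CPM in libraries labelled set 1, 81.4 to 86.1 CPM in set 2 and 123.4 to 131 CPM in the IMR90 control. Of the 3 tested there, 1 rose and 1 fell in libraries labelled set 1, and 3 fell in set 2 (-1.55 to -0.32). In Huh7 they summed to 1285 to 1325 CPM with shTHBD and 2186 to 2275 CPM in the control, and 4 of 6 fell (-2.81 to 0.01 over the 6). Leukocyte markers summed to at most 13.3 CPM and endothelial markers to at most 15.8 CPM in any library. Mitochondrial genes took 5.82% to 5.98% of counts in libraries labelled set 1, 6.38% to 6.58% in set 2 and 5.43% to 5.48% in the IMR90 control. They took 8.04%, 7.83% and 9.94% in the Huh7 shTHBD libraries and 7.26% to 8.35% in the Huh7 control. Huh7 shTHBD replicate 3 also stood apart over all genes: the chi-square per degree of freedom between libraries was 9.99 and 12.5 for it against replicates 1 and 2, which gave 4.31 against each other, and 3.57 to 5.26 among the Huh7 control libraries. Pairs of IMR90 libraries within a group lay closer together, at 1.93 to 2.66 on the same measure. The fitted spread beyond counting error was 3.13% in IMR90 and 8.20% in Huh7. Calls in IMR90 and in Huh7 thus rest on unlike spreads, and smaller changes can be called in IMR90. The description of set 2 replicate 3 names Huh7 while its other labels name IMR90. Its fibroblast markers summed to 12457 CPM and its hepatocyte markers to 12.5 CPM, close to the other set 2 libraries, and it was kept in its group. The part of these differences in the results below was not tested.

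Most of the ER genes were lower in libraries labelled set 1 and in set 2 than in the IMR90 control, and set 2 lay lower than libraries labelled set 1 for the HSP70 and HSP90 chaperones and the J-domain cochaperones. Values are CPM by library size, log2 fold changes come from edgeR's quasi-likelihood fit with TMM scaling and are given with an approximate SE, and a gene is called at a Benjamini-Hochberg adjusted p under 0.05 over all genes tested. DERL3, an ERAD channel subunit, had at most 2 counts in any library and was not tested, which leaves 34 genes. CPM are not scaled by TMM, so a ratio of CPM can differ from the fitted fold change. The summed level of the 35 genes was 12326 ± 21.3 CPM in libraries labelled set 1, 12045 ± 105 CPM in set 2 and 14782 ± 28.7 CPM in the control (SD, n = 3 each). The 3 groups did not overlap. In bulk RNA, fewer cells of a type and less RNA per cell cannot be told apart. In libraries labelled set 1, 26 of the 34 genes fell and 3 rose, where 26.5% of the 15411 genes tested fell and 27.3% rose, and their median log2 fold change was -0.31, against 0.00 over all genes. In set 2, 27 fell and 6 rose, where 34.1% of all genes fell and 33.2% rose, and the median was -0.43, against 0.01 over all genes; without set 2 replicate 3 the counts were again 27 and 6. Both sets share the control libraries. Set against each other, 21 of the 34 genes were higher in libraries labelled set 1 than in set 2 and 10 were lower, where 33.9% of all genes were higher and 35.6% lower. With library size alone as scaling these counts were 17 and 13. In Huh7 shTHBD, 12 rose and 10 fell, where 25.9% of the 17474 genes tested rose and 27.3% fell, so the Huh7 counts lay near those of all genes, with a median of 0.04 for the 34 genes and 0.00 for all. Without Huh7 shTHBD replicate 3, the library that stood apart, 11 rose and 11 fell.

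**Figure D2:**
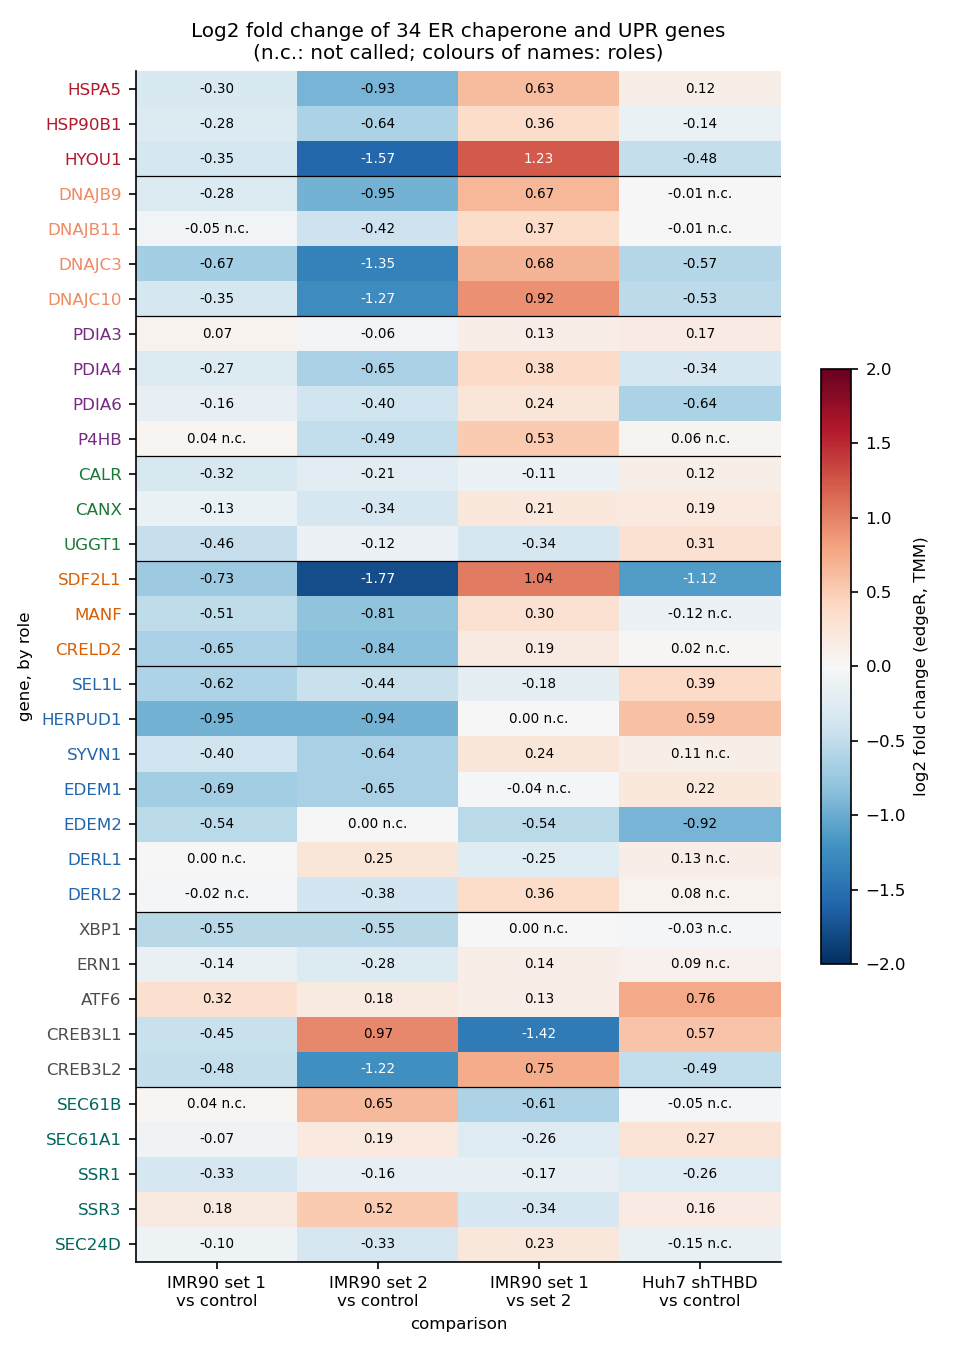
Log2 fold changes (edgeR, TMM) of the 34 genes tested, in rows by role, for 4 comparisons in columns; blue is lower and red higher in the group named first, and n.c. marks values that were not called. The set 2 column is blue for every HSP70, HSP90, J-domain, disulfide isomerase and lectin chaperone gene (PDIA3, at -0.06, turns to 0.01 with upper-quartile and 0.02 with library size scaling), while the Huh7 column mixes both colours.

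The 3 large luminal chaperones fell in both IMR90 sets, as did 1984 of the 15411 genes tested. HYOU1 (GRP170), a nucleotide exchange factor for HSPA5, moved most of the 3 chaperones. It had 314, 301 and 294 CPM in libraries labelled set 1, 144, 144 and 139 CPM in set 2 and 404, 393 and 403 CPM in the IMR90 control. The 3 groups were fully apart, with set 2 lowest and the control highest. Against the control its log2 fold change was -0.35 ± 0.027 in libraries labelled set 1 (adjusted p = 1.42e-18) and -1.57 ± 0.029 in set 2, a 2.98-fold fall (adjusted p = 1.94e-55). Set 1 over set 2 gave 1.23 ± 0.029. In Huh7 it had 241, 260.0 and 219.9 CPM with shTHBD and 319, 331 and 339 CPM in the control, again without overlap, and fell by 0.48 on the log2 scale (SE 0.057, adjusted p = 9.14e-09).

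HSPA5, the ER's HSP70 and the chaperone that also holds the UPR sensors inactive, had 1670.3, 1634 and 1638 CPM in libraries labelled set 1, 1148, 1209 and 1166 CPM in set 2 and 2129, 2102 and 2110.2 CPM in the IMR90 control. The order of the groups was that of HYOU1, with no overlap. Its log2 fold change was -0.30 ± 0.019 in libraries labelled set 1 (adjusted p = 3.23e-23), -0.93 ± 0.019 in set 2 (adjusted p = 4.44e-52) and 0.63 ± 0.019 for set 1 over set 2 (adjusted p = 1.83e-41). In Huh7, HSPA5 had 791, 809 and 788 CPM with shTHBD and 729, 724 and 698 CPM in the control. The shTHBD libraries were all higher, by 0.12 ± 0.051 on the log2 scale (adjusted p = 0.0425), but leaving out any 1 of the 6 libraries ended this call, with values of 0.09 to 0.14. HSP90B1 (GRP94), the ER's HSP90, averaged 1081 ± 16.5 CPM in libraries labelled set 1, 925 ± 18.7 CPM in set 2 and 1360.4 ± 16.4 CPM in the IMR90 control, with log2 fold changes of -0.28 and -0.64. In Huh7 it averaged 866 ± 23.0 CPM with shTHBD and 936 ± 39.0 CPM in the control (all SD, n = 3), a change of -0.14 ± 0.051 that was called. It lost its call without shTHBD replicate 1 or 2 or control replicate 1 or 2 (-0.12 to -0.15), and 16.7% of its exonic bases in the Huh7 table lie in other genes.

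All 4 J-domain cochaperones, which hand substrates to HSPA5 and start its ATPase cycle, fell in set 2, and 3 of 4 fell in libraries labelled set 1. Of all genes tested, 34.1% fell in set 2 and 26.5% in libraries labelled set 1. DNAJC3, known in addition as an inhibitor of the kinase PERK, had 75.4, 77.1 and 78.6 CPM in libraries labelled set 1, 54.6, 55.9 and 48.4 CPM in set 2 and 125, 126 and 132 CPM in the IMR90 control. Its log2 fold changes were -0.67 ± 0.042 (adjusted p = 4.11e-23) and -1.35 ± 0.045 (adjusted p = 1.51e-39), with all 3 groups apart. DNAJC10 (ERdj5), a cochaperone that also reduces disulfides, had 209, 209 and 201 CPM in libraries labelled set 1, 118, 124 and 119 CPM in set 2 and 276, 275 and 269 CPM in the control. Set 2 was lowest and the control highest, with no overlap, and the log2 difference was 0.92 ± 0.032 for set 1 over set 2 (adjusted p = 3.94e-38). Both also fell in Huh7. DNAJC3 had 53.6, 53.0 and 62.5 CPM with shTHBD and 82.9, 85.7 and 77.3 CPM in the control (-0.57 ± 0.079). DNAJC10 had 122, 116 and 117 CPM with shTHBD and 173, 172 and 155 CPM in the control (-0.53 ± 0.063). DNAJB9 (ERdj4), which takes substrates to degradation, changed by -0.28 and -0.95 in libraries labelled set 1 and in set 2, both called. DNAJB11 (ERdj3) fell in set 2 by 0.42 on the log2 scale and was not called in libraries labelled set 1 (-0.05 ± 0.038). In IMR90, 14.2% of its exonic bases lie in other genes, and in Huh7 23.2%, so its counts are less certain in both lines. In Huh7 neither was called, with values of -0.01 ± 0.065 and -0.01 ± 0.076.

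The protein disulfide isomerases, which form and reshuffle disulfide bonds, fell by less: 2 of 4 fell and 1 rose in libraries labelled set 1, 4 fell in set 2, and 2 fell and 1 rose in Huh7. Of all genes tested, 26.5% fell and 27.3% rose in libraries labelled set 1. In set 2, 34.1% of all genes fell, and in Huh7 27.3% fell and 25.9% rose. P4HB, the classical isomerase and also the beta subunit of collagen prolyl 4-hydroxylase, had 1549, 1546 and 1579 CPM in libraries labelled set 1, 1193, 1181 and 1192 CPM in set 2 and 1592, 1576 and 1549 CPM in the IMR90 control. Set 2 alone stood apart. The log2 fold change was -0.49 ± 0.019 there (adjusted p = 2.99e-35) and 0.53 ± 0.019 for set 1 over set 2. It was 0.04 ± 0.019 in libraries labelled set 1 (adjusted p = 0.0535, not called; 0.05 and adjusted p = 0.00609 with the DESeq2 test). PDIA4 (ERp72) had 460.0, 459.6 and 448 CPM in libraries labelled set 1, 380.4, 375 and 398 CPM in set 2 and 566, 579.7 and 567 CPM in the control. It fell in both sets (-0.27 and -0.65) and in Huh7, where it had 272, 272 and 253 CPM with shTHBD and 331, 321 and 335 CPM in the control (-0.34 ± 0.054). PDIA6 (P5) fell by 0.16 and 0.40 on the log2 scale in libraries labelled set 1 and in set 2 and by 0.64 in Huh7. Of its values less is certain, since 25.2% of its exonic bases are shared with ATP6V1C2 on the other strand, and no strand option is recorded for the counting.

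PDIA3 (ERp57), the isomerase that works with the lectin chaperones, had 709.6, 715 and 709.6 CPM in libraries labelled set 1, 709, 722 and 708 CPM in set 2 and 711, 699.7 and 696 CPM in the IMR90 control, and the 3 groups overlapped. The called log2 fold changes, 0.07 ± 0.021 in libraries labelled set 1 and -0.06 ± 0.021 in set 2, are among the smallest that were called. The first is not called (0.04 and 0.02) and the second turns to 0.01 and 0.02 with upper-quartile scaling and with library size alone. In addition 18.9% of its exonic bases lie in other genes. PDIA3 in Huh7 had 712, 687 and 656 CPM with shTHBD and 604, 622 and 568 CPM in the control, without overlap. The rise of 0.17 ± 0.053 (adjusted p = 0.0085) was not called without shTHBD replicate 1 or without control replicate 3.

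The lectin chaperones CALR (calreticulin) and CANX (calnexin), which hold glycoproteins while they fold, and UGGT1, the glucosyltransferase that sends misfolded glycoproteins back to them, fell in both IMR90 sets and rose in Huh7. Of the 15411 genes tested in IMR90, 1984 fell in both sets, and 25.9% of the genes tested in Huh7 rose there. CALR had 1645, 1624 and 1596 CPM in libraries labelled set 1, 1884, 1939 and 1955 CPM in set 2 and 2094, 2111 and 2119 CPM in the IMR90 control. Here libraries labelled set 1 were the lowest, at -0.32 ± 0.018 against the control, with set 2 at -0.21 ± 0.018. CALR in Huh7 had 1393, 1417 and 1300.5 CPM with shTHBD and 1222, 1244 and 1253 CPM in the control. The rise of 0.12 ± 0.048 (adjusted p = 0.044) lost its call when any 1 library other than shTHBD replicate 3 was left out.

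CANX had 932, 926 and 923 CPM in libraries labelled set 1, 876, 893 and 883 CPM in set 2 and 1039, 1067 and 1064 CPM in the IMR90 control. CANX in Huh7 had 1153, 1129 and 1249.5 CPM with shTHBD and 1041, 1035 and 962 CPM in the control. No 2 of the groups compared within a line overlapped, and the log2 fold changes were -0.13 ± 0.020, -0.34 ± 0.020 and, in Huh7, 0.19 ± 0.056. UGGT1 had 130.0, 114 and 117 CPM in libraries labelled set 1, 168, 168 and 166 CPM in set 2 and 167, 176 and 174 CPM in the IMR90 control. Libraries labelled set 1 stood well below the others (-0.46 ± 0.036, adjusted p = 1.27e-18), while set 2 and the control overlapped. The call in set 2 (-0.12 ± 0.035) was lost with upper-quartile scaling (-0.06) and with library size alone (-0.04). In Huh7 it had 185, 198 and 209 CPM with shTHBD and 155, 158 and 155 CPM in the control, a rise of 0.31 ± 0.062 (adjusted p = 6.45e-05) with no overlap.

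SDF2L1, MANF and CRELD2, small luminal proteins known as products of UPR target genes, fell in both IMR90 sets. Of the 15411 genes tested, 1984 fell in both. SDF2L1, which works with J-domain cochaperones to keep substrates from aggregating, had the largest fall of the 34 genes in set 2. It had 42.3, 43.5 and 40.6 CPM in libraries labelled set 1, 23.4, 21.3 and 22.7 CPM in set 2 and 73.2, 71.2 and 73.2 CPM in the IMR90 control. The groups were far apart, with log2 fold changes of -0.73 ± 0.053 (adjusted p = 6.52e-20) and -1.77 ± 0.058 (adjusted p = 1.35e-39), the second a 3.42-fold fall. It also had the largest fall in Huh7, with 14.1, 14.3 and 9.21 CPM with shTHBD and 25.6, 23.7 and 30.7 CPM in the control (-1.12 ± 0.13, adjusted p = 6.36e-09). MANF, a secreted stress-induced protein, averaged 83.8 ± 4.72 CPM in libraries labelled set 1, 74.7 ± 4.17 CPM in set 2 and 124 ± 2.67 CPM in the IMR90 control. CRELD2 averaged 52.0 ± 1.66 CPM in libraries labelled set 1, 50.3 ± 2.30 CPM in set 2 and 85.0 ± 2.80 CPM in the control (SD, n = 3 each). Neither was called in Huh7, with log2 fold changes of -0.12 ± 0.075 for MANF and 0.02 ± 0.10 for CRELD2.

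Of the 7 ERAD genes tested, 5 fell and none rose in libraries labelled set 1, where 26.5% of all genes tested fell and 27.3% rose. In set 2, 5 fell and 1 rose, where 34.1% of all genes fell and 33.2% rose. In Huh7, 1 fell and 3 rose, where 27.3% of all genes fell and 25.9% rose. HERPUD1, a membrane protein that helps assemble the degradation complex, had 64.9, 68.3 and 71.7 CPM in libraries labelled set 1, 79.5, 75.7 and 70.7 CPM in set 2 and 139, 137 and 135 CPM in the IMR90 control. Both sets lay far below the control, at -0.95 ± 0.042 (adjusted p = 2.06e-31) and -0.94 ± 0.042 (adjusted p = 4.28e-32), and set 1 over set 2 was 0.00 ± 0.045, not called. In Huh7, HERPUD1 had 132, 129.7 and 113 CPM with shTHBD and 78.4, 87.2 and 78.1 CPM in the control, a rise of 0.59 ± 0.068 (adjusted p = 5.54e-09).

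SEL1L, the adaptor of the ubiquitin ligase SYVN1 (HRD1), had 150.2, 153 and 151 CPM in libraries labelled set 1, 192, 191 and 184 CPM in set 2 and 238, 242 and 247 CPM in the IMR90 control. SEL1L in Huh7 had 218, 204 and 234 CPM with shTHBD and 163, 172 and 157 CPM in the control. All groups were apart within each line, lower than the control in IMR90 (-0.62 ± 0.031 and -0.44 ± 0.030) and higher in Huh7 (0.39 ± 0.064, adjusted p = 4.38e-06). EDEM1, a mannosidase-like protein that marks glycoproteins for degradation, had 151, 153 and 155 CPM in libraries labelled set 1, 168, 181 and 169 CPM in set 2 and 259.6, 249.9 and 259 CPM in the IMR90 control (-0.69 ± 0.032 and -0.65 ± 0.032). EDEM1 in Huh7 had 136, 129.6 and 129.8 CPM with shTHBD and 105, 116 and 112 CPM in the control (0.22 ± 0.062, adjusted p = 0.00333). SYVN1 itself fell in both sets (-0.40 and -0.64) and was not called in Huh7 (0.11 ± 0.066).

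EDEM2, which trims the first mannose that marks a glycoprotein for ERAD, fell in libraries labelled set 1 and in Huh7; its libraries, with those of ATF6 and XBP1, are given in full by a choice made after their values were seen. EDEM2 had 15.9, 16.4 and 18.7 CPM in libraries labelled set 1, 24.4, 27.4 and 29.8 CPM in set 2 and 26.7, 28.5 and 22.4 CPM in the IMR90 control. Set 2 and the control overlapped (0.00 ± 0.081, not called) and libraries labelled set 1 were lower (-0.54 ± 0.086, adjusted p = 1.49e-07). In Huh7 it had 37.9, 42.9 and 41.2 CPM with shTHBD and 72.6, 74.8 and 79.5 CPM in the control, a 1.90-fold fall (-0.92 ± 0.076, adjusted p = 3.87e-12). DERL2, a channel protein of ERAD, fell in set 2 (-0.38) and DERL1 rose there (0.25); neither was called in libraries labelled set 1 (-0.02 ± 0.055 and 0.00 ± 0.044) or in Huh7 (0.08 ± 0.084 and 0.13 ± 0.070).

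**Figure D3:**
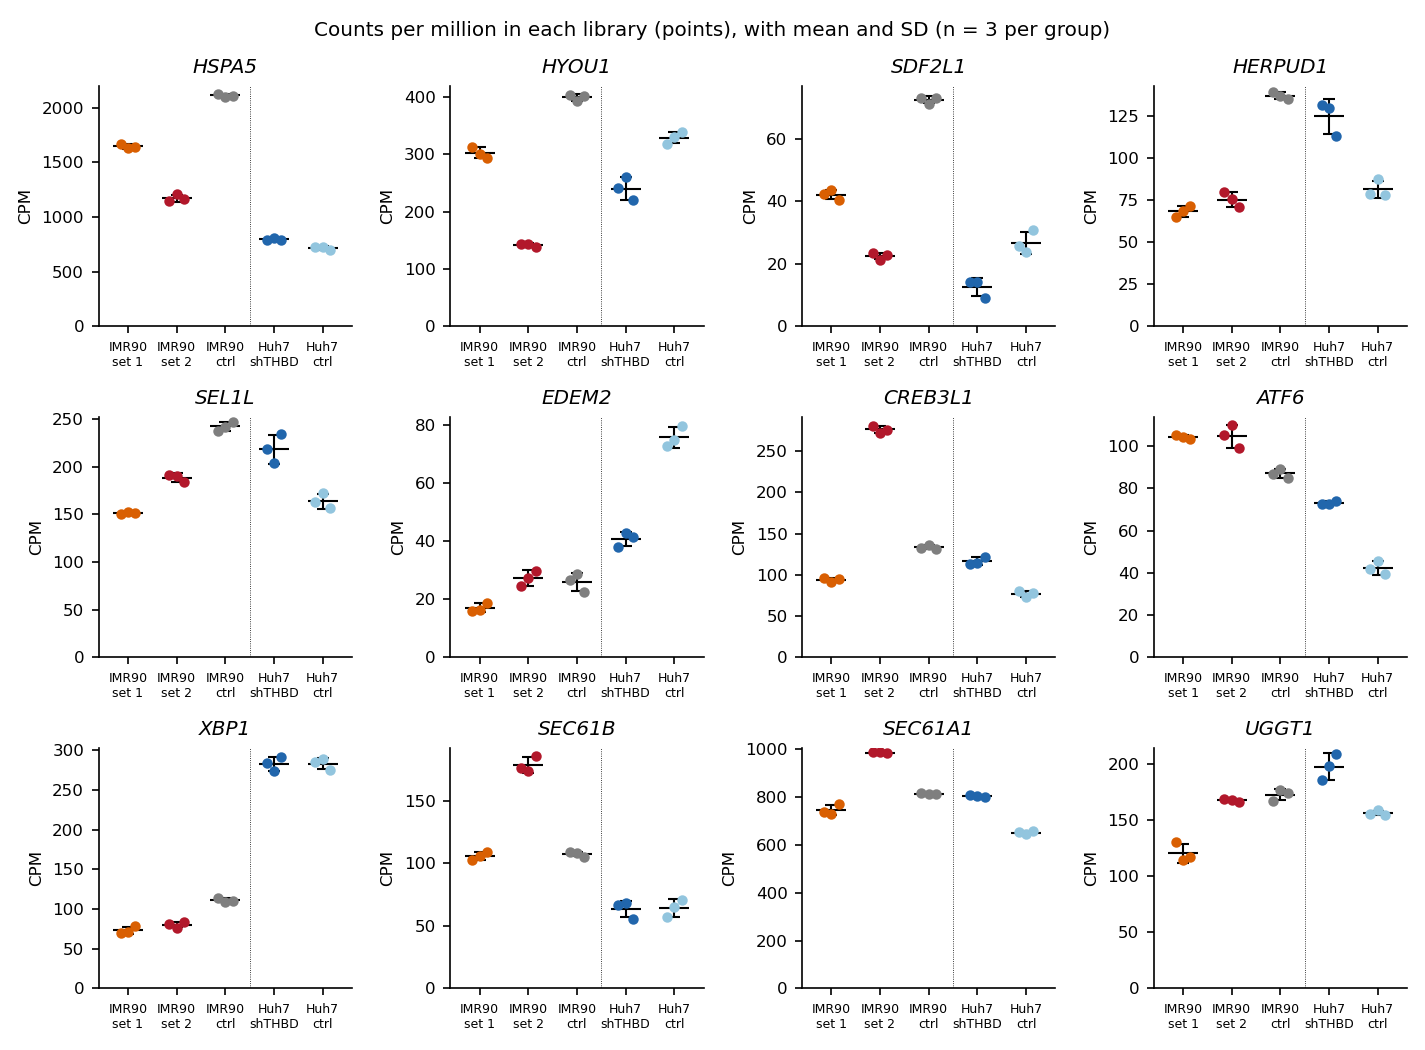
CPM of 12 genes in each of the 15 libraries (points; the bar and whiskers are mean and SD, n = 3), with IMR90 groups left and Huh7 groups right of the dotted line, the set numbers as labelled. HYOU1 and SDF2L1 fall below control in IMR90 and in Huh7, HERPUD1 and SEL1L lie below control in IMR90 and above it in Huh7, and CREB3L1 lies below control in libraries labelled set 1 and above it in set 2.

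Among the sensors and transcription factors, XBP1 and ERN1 fell in both IMR90 sets and ATF6 rose in both. XBP1, the factor made active by IRE1 splicing, had 70.2, 71.1 and 77.9 CPM in libraries labelled set 1, 81.2, 76.5 and 83.03 CPM in set 2 and 114, 109 and 110.2 CPM in the IMR90 control. Both sets lay below every control library, at log2 fold changes of -0.55 ± 0.043 (adjusted p = 1.67e-18) and -0.55 ± 0.042 (adjusted p = 2.98e-19). In Huh7 its libraries overlapped, with 284, 274 and 291 CPM with shTHBD and 285, 289 and 275 CPM in the control (-0.03 ± 0.056, not called). ERN1 (IRE1) itself averaged 44.8 ± 1.04 CPM in libraries labelled set 1, 44.9 ± 2.27 CPM in set 2 and 51.4 ± 1.84 CPM in the IMR90 control (SD, n = 3 each). The called changes were -0.14 ± 0.055 and -0.28 ± 0.055, and the first was lost with the DESeq2 test (adjusted p = 0.0648) and without control replicate 1, control replicate 2 or set 1 replicate 2 (-0.12 to -0.13).

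ATF6, the sensor that is cut in the Golgi, had 105, 104 and 103 CPM in libraries labelled set 1, 105, 110.0 and 98.9 CPM in set 2 and 87.0, 89.3 and 84.8 CPM in the IMR90 control. The 3 libraries labelled set 1 and the 3 of set 2 were above all control libraries, by 0.32 ± 0.040 (adjusted p = 3.53e-10) and 0.18 ± 0.041 (adjusted p = 5.36e-05). Its rise was larger in Huh7, where it had 72.5, 72.4 and 74.0 CPM with shTHBD and 41.9, 45.6 and 39.2 CPM in the control (0.76 ± 0.077, adjusted p = 4.28e-10). Set 2 minus Huh7 was -0.60 ± 0.080 (adjusted p = 4.75e-08) and set 1 minus Huh7 was -0.46 ± 0.080 (adjusted p = 6e-06).

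The CREB3-like factors CREB3L1 (OASIS) and CREB3L2 (BBF2H7) are relatives of ATF6, and in mice CREB3L1 drives type I collagen in bone and CREB3L2 drives secretion in cartilage. CREB3L1 had 95.8, 91.0 and 95.4 CPM in libraries labelled set 1, 281, 272 and 276 CPM in set 2 and 133, 136 and 131 CPM in the IMR90 control. The sets lay on opposite sides of the control, at -0.45 ± 0.035 (adjusted p = 1.15e-18) and 0.97 ± 0.032 (adjusted p = 1.51e-39). Set 1 over set 2 was -1.42 ± 0.033 (adjusted p = 7.56e-49), the largest difference between the sets among the 34 genes. COL1A1, the gene of a type I collagen chain and one of the fibroblast markers, is an addition to the genes given in full by rule. It stood in the same order, with 824, 785 and 816 CPM in libraries labelled set 1, 4436, 4357 and 4399 CPM in set 2 and 1736, 1739.8 and 1757 CPM in the control. This order is not particular to COL1A1. Of the 8 fibroblast markers, 6 fell and 1 rose in libraries labelled set 1, and 6 rose and 2 fell in set 2. A link between CREB3L1 and COL1A1 was not tested. In Huh7, CREB3L1 had 114, 114 and 122 CPM with shTHBD and 79.9, 72.9 and 78.5 CPM in the control (0.57 ± 0.068, adjusted p = 1.37e-08). COL1A1 there averaged 239 ± 11.4 CPM with shTHBD and 238 ± 8.62 CPM in the control. CREB3L2 had 112, 108 and 112 CPM in libraries labelled set 1, 73.6, 75.2 and 68.6 CPM in set 2 and 161, 154 and 164 CPM in the IMR90 control. It fell in both sets (-0.48 ± 0.037 and -1.22 ± 0.039) and in Huh7 (-0.49 ± 0.067).

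Of the 5 genes of entry into and exit from the ER, 3 fell and 1 rose in libraries labelled set 1, where 26.5% of all genes tested fell and 27.3% rose. In set 2, 2 fell and 3 rose, where 34.1% of all genes fell and 33.2% rose. In Huh7, 1 fell and 2 rose, where 27.3% of all genes fell and 25.9% rose. SEC61B, a small subunit of the protein-conducting channel, had 103, 106 and 109 CPM in libraries labelled set 1, 176, 174 and 186 CPM in set 2 and 109, 109 and 105 CPM in the IMR90 control. Set 2 was above all others (0.65 ± 0.036, adjusted p = 1.31e-26), and libraries labelled set 1 overlapped the control (0.04 ± 0.037, not called). In Huh7 SEC61B was not called either (-0.05 ± 0.080). SEC61A1, the pore-forming subunit, had 739, 729 and 772 CPM in libraries labelled set 1, 988, 987 and 985 CPM in set 2 and 819, 813 and 811 CPM in the IMR90 control. Set 2 was above the control (0.19 ± 0.021) and libraries labelled set 1 were below it (-0.07 ± 0.021, adjusted p = 0.00419, not called without set 1 replicate 2). Set 1 over set 2 was -0.26 ± 0.021 (adjusted p = 3.44e-18). In Huh7 it had 808, 804 and 799 CPM with shTHBD and 654, 644 and 657 CPM in the control, a rise of 0.27 ± 0.050 (adjusted p = 2.22e-05).

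SSR3 and SSR1 are subunits of the translocon-associated TRAP complex, and they moved in opposite directions. SSR3 rose in both sets (0.18 and 0.52) and in Huh7 (0.16, not called without control replicate 3). It averaged 645 ± 13.1 CPM in libraries labelled set 1, 897 ± 22.8 CPM in set 2 and 592 ± 2.95 CPM in the IMR90 control (SD, n = 3 each), and 20.8% of its exonic bases lie in another gene. SSR1 fell in both sets (-0.33 and -0.16) and in Huh7 (-0.26). SEC24D, a cargo-binding subunit of the COPII coat that carries collagen and other cargo out of the ER, fell by 1.26-fold in set 2 (-0.33). It was called in libraries labelled set 1 at -0.10, a call lost without set 1 replicate 2 or control replicate 3 (-0.08 in both), and it was not called in Huh7 (-0.15 ± 0.065).

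The effect in IMR90 and the effect in Huh7 were compared directly in a fit of all 15 libraries over the 16682 genes named in both tables that passed its filter on low counts. Line, inducer of senescence, hairpin and table all differ between the 2 effects and cannot be told apart. The joint fit is scaled over all libraries, so a difference can depart slightly from the 2 effects subtracted. It also shares 1 estimate of spread per gene between the lines. The common spread beyond counting error was 3.13% in the IMR90 fit, 8.20% in the Huh7 fit and 5.48% in the joint fit. For HSPA5 and SEC61A1 the SE of a difference came out below that of the Huh7 effect alone. The SE and adjusted p of the differences below may thus be too small. Of the 34 genes, 26 had a lower effect in set 2 than in Huh7 and 5 a higher one, where 22.8% of all genes were lower and 21.2% higher, and the median difference was -0.54, against 0.00 over all genes. For libraries labelled set 1, 17 were lower and 4 higher than in Huh7, where 23.6% of all genes were lower and 23.9% higher. With library size alone as scaling these were 20 and 2. Without Huh7 shTHBD replicate 3, the counts were 26 lower and 5 higher for set 2 and 17 and 3 for libraries labelled set 1. Both differences rest on the same Huh7 libraries.

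HERPUD1 showed the widest gap, with effects of -0.94 in set 2 and 0.59 in Huh7 and a difference of -1.56 ± 0.079 (adjusted p = 3.61e-19). HYOU1 followed at -1.12 ± 0.060, where both effects were falls of unequal size. HSPA5 came next at -1.08 ± 0.046 (adjusted p = 2.09e-21). DNAJB9 and EDEM1 differed by -0.97 ± 0.077 and -0.90 ± 0.063. XBP1, which changed in IMR90 and was not called in Huh7, differed by -0.55 ± 0.069 (adjusted p = 1.46e-08). The genes with a higher effect in set 2 than in Huh7 were EDEM2 (0.89 ± 0.12), SEC61B (0.67 ± 0.083), CREB3L1 (0.37 ± 0.068), SSR3 (0.33 ± 0.053) and PDIA6 (0.21 ± 0.055). DERL1, SEC61A1 and SSR1 were not called, with differences of 0.09 ± 0.077, -0.11 ± 0.047 and 0.07 ± 0.062.

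For libraries labelled set 1, HERPUD1 again had the widest gap to Huh7, at -1.56 ± 0.079 (adjusted p = 2.76e-19). CREB3L1, which fell in those libraries and rose in Huh7, differed by -1.04 ± 0.069 and SEL1L by -1.03 ± 0.069. EDEM1 differed by -0.93 ± 0.063, UGGT1 by -0.79 ± 0.071 and CRELD2 by -0.69 ± 0.10. The 4 genes with a higher effect in libraries labelled set 1 than in Huh7 were PDIA6 (0.46 ± 0.055), SDF2L1 (0.37 ± 0.13), EDEM2 (0.36 ± 0.12) and DNAJC10 (0.16 ± 0.064). The calls of SDF2L1, EDEM2 and DNAJC10 were each lost without 1 or another library, with values of 0.21 to 0.34, 0.27 to 0.29 and 0.13 to 0.17. Of the 4, 2 were called without set 1 replicate 2 or without IMR90 control replicate 3.

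Called changes of set 2 and Huh7, whose libraries are separate, had the same direction in 13 of the 34 genes (38.2%) and opposite directions in 8 (23.5%). Over the 12645 genes tested in both fits the shares were 35.1% and 10.98%. Without Huh7 shTHBD replicate 1 or without Huh7 control replicate 3, HSPA5, PDIA3 and CALR lost their Huh7 calls and the opposite directions fell to 5 of the 34 genes (14.7%), against 10.0% and 9.79% of all genes. The 9 genes that fell in both were HSP90B1, HYOU1, DNAJC3, DNAJC10, PDIA4, PDIA6, SDF2L1, CREB3L2 and SSR1. The 4 that rose in both were ATF6, CREB3L1, SEC61A1 and SSR3. The 8 with opposite calls were HSPA5, PDIA3, CALR, CANX, UGGT1, SEL1L, HERPUD1 and EDEM1, all lower in set 2 and higher in Huh7.

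**Figure D4:**
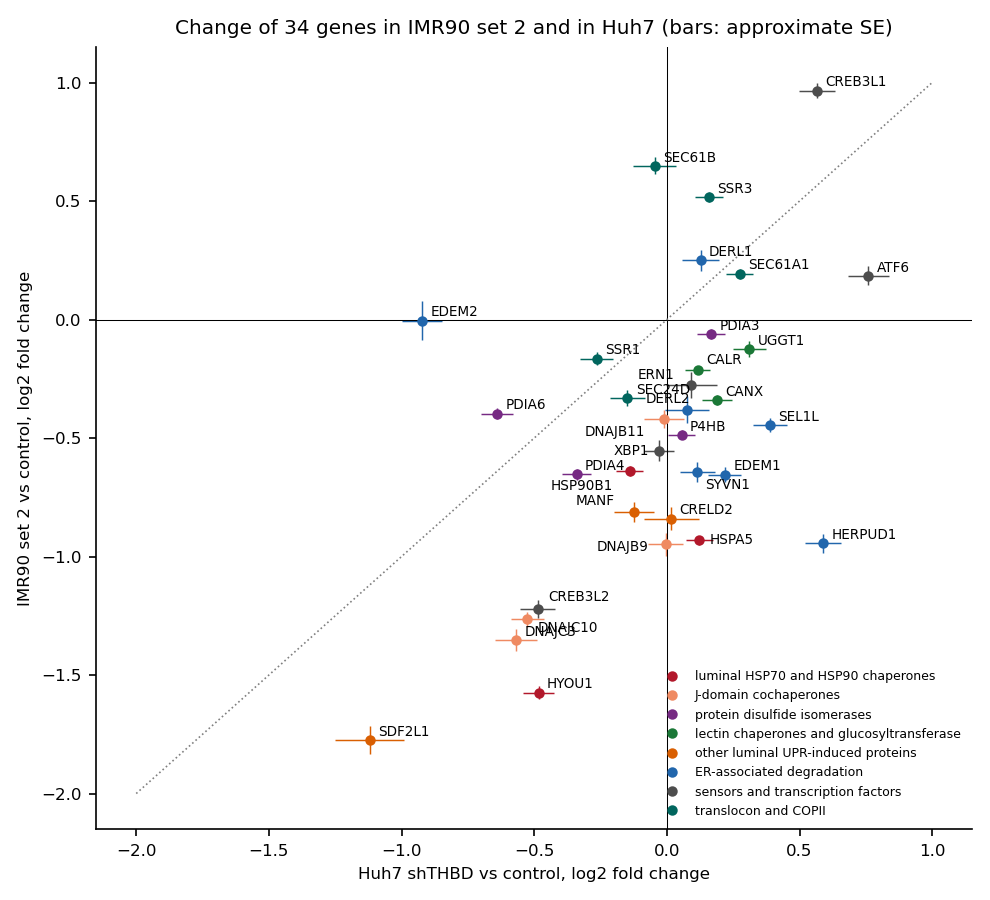
Log2 fold change of the 34 genes in IMR90 set 2 (vertical) against that in Huh7 shTHBD (horizontal), each against its own control, with approximate SE as bars and colours by role; the dotted line marks equal change. Most points lie below the dotted line; SDF2L1 and HYOU1 are low on both axes, HERPUD1 lies at -0.94 in set 2 and 0.59 in Huh7, and CREB3L1 is positive on both (PDIA3 lies just above 0 in set 2 with upper-quartile or library size scaling).

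Between genes, levels per length (CPM per kb of the gene length in the table, unscaled by TMM) spanned a wide range. In the IMR90 control CALR was highest at 752 ± 4.47 CPM per kb, followed by HSPA5 at 324 ± 2.11, SEC61A1 at 176 ± 0.826, PDIA4 at 173 ± 2.34 and PDIA3 at 166 ± 1.805 (SD, n = 3). The libraries of SEC61A1 and PDIA4 overlapped. ERN1 was the lowest gene tested, at 2.68 ± 0.0959 CPM per kb. In the Huh7 control the order began with CALR at 457 ± 5.83, P4HB at 283 ± 14.2, HSP90B1 at 199 ± 8.31 and HSPA5 at 183 ± 4.22 CPM per kb. The tables give HSPA5 a length of 6530 bases in IMR90 and 3921 bases in Huh7, HSP90B1 13092 and 4695 bases, and P4HB 11132 and 5231 bases. Levels per length are therefore not compared between lines. The order of genes within a line also rests on the lengths used: with the Huh7 lengths, P4HB and HSP90B1 would stand above SEC61A1 and PDIA4 in the IMR90 control. Over the genes, the median level was 22.9 CPM per kb in libraries labelled set 1, 20.5 in set 2 and 31.7 in the IMR90 control, and 23.9 with shTHBD and 23.8 in the control in Huh7.

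The genes with and without a promoter element were set side by side as a description, with no test. The 12 genes with any of the 3 elements had a median log2 fold change of -0.74 in set 2, and the 19 with a window and no match had -0.42. In libraries labelled set 1 both medians were -0.33, and in Huh7 they were -0.01 with an element and 0.06 without. Among the genes with an element, set 2 changes ran from -1.77 for SDF2L1 to 0.52 for SSR3, and HERPUD1 and SDF2L1, which both hold ERSE-II, lay on opposite sides of 0 in Huh7.

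The other genes of the pathway were 140 genes in 8 lists. In libraries labelled set 1, 53 of the 136 tested fell and 49 rose, where 26.5% of all genes tested fell and 27.3% rose. In set 2, 68 fell and 40 rose, where 34.1% of all genes fell and 33.2% rose. In Huh7, 54 of 139 fell and 43 rose, where 27.3% of all genes fell and 25.9% rose. Their median log2 fold changes were -0.02, -0.11 and -0.06. Set 1 over set 2, 67 were higher and 47 lower, where 33.9% of all genes were higher and 35.6% lower. The same shares of all genes belong beside the counts of each list below, and counts near them are not a result about a list.

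The PERK and ATF4 branch held the largest changes in libraries labelled set 1. Of its 14 genes, 8 fell and 4 rose in libraries labelled set 1, 9 fell and 4 rose in set 2, and 5 fell and 6 rose in Huh7. CHAC1, a glutathione-degrading enzyme and target of ATF4, had 10.6, 13.1 and 12.03 CPM in libraries labelled set 1, 25.4, 27.7 and 24.0 CPM in set 2 and 55.1, 58.5 and 58.9 CPM in the IMR90 control. In Huh7 it had 35.7, 39.4 and 30.2 CPM with shTHBD and 16.9, 18.03 and 22.04 CPM in the control. It fell in both sets (-2.21 ± 0.075 and -1.25 ± 0.067) and rose in Huh7 (0.86 ± 0.11), the pattern of HERPUD1. NUPR1, a stress-induced nuclear protein, fell in all 3 comparisons with control (-2.90 ± 0.43, -1.30 ± 0.35 and, in Huh7, -0.80 ± 0.26). ATF5, a transcription factor of the stress response, and DDIT4, an inhibitor of mTOR signalling, fell in set 2 (-1.41 and -1.43) and in Huh7 (-1.60 and -0.86). ATF3, a stress-induced factor, rose in Huh7 (1.36 ± 0.093) and in set 2 (0.46 ± 0.089), and ASNS, asparagine synthetase, fell in libraries labelled set 1 (-1.75 ± 0.42).

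A further list held 20 other disulfide and proline folding enzymes. ERO1A, the oxidase that recharges P4HB, had 450.4, 454 and 438 CPM in libraries labelled set 1, 106, 110.1 and 106 CPM in set 2 and 303, 316 and 298 CPM in the IMR90 control. The sets lay on opposite sides of the control (0.61 ± 0.027 and -1.59 ± 0.030), and ERO1A also fell in Huh7, with 61.8, 62.8 and 67.7 CPM with shTHBD and 139.7, 139 and 135 CPM in the control (-1.13 ± 0.067). TXNDC11, a thioredoxin-domain protein, followed the same pattern (0.17, -2.21 and, in Huh7, -1.51). The prolyl isomerase PPIB (cyclophilin B), which acts on collagen, changed by -0.20, -1.06 and -1.25 in the same comparisons and TXNDC5 by -0.93, -1.24 and -0.54, all called. The proline isomerase FKBP7 fell in libraries labelled set 1 (-1.30) and rose in set 2 (0.28). In this list 9 of 19 fell and 6 rose in set 2, 7 fell and 8 rose in libraries labelled set 1, and 9 of 20 fell and 8 rose in Huh7.

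STT3A, a catalytic subunit of the oligosaccharyltransferase that adds glycans to entering proteins, had 262, 247 and 248 CPM in libraries labelled set 1, 88.8, 91.99 and 92.7 CPM in set 2 and 304, 307 and 316 CPM in the IMR90 control. Set 2 was far below the rest (-1.84 ± 0.032, adjusted p = 8.25e-57), and STT3A fell in Huh7 as well (-0.94 ± 0.058). In its list of 18, 11 fell and 5 rose in set 2, 8 fell and 4 rose in libraries labelled set 1, and 7 fell and 4 rose in Huh7. Other large changes were MOGS (-0.97) and DPAGT1 (-0.93) in set 2 and OSTC (-0.95) in Huh7. STT3B, the other catalytic subunit, fell in set 2 (-0.69) and in Huh7 (-0.45), and UGGT2, the relative of UGGT1, fell in both IMR90 sets (-0.30 and -0.64). SDF2, the relative of SDF2L1 that is not known as a UPR target, rose in libraries labelled set 1 (0.38) and fell in set 2 (-1.63) and in Huh7 (-1.78). With CNPY3, which helps fold Toll-like receptors (-1.29 in set 2 and -1.14 in Huh7), it led the list of other chaperones in those comparisons. In that list 6 of 14 fell and 2 rose in set 2, 4 fell and 6 rose in libraries labelled set 1, and 6 fell and 3 rose in Huh7. The HSP70 relative HSPA13 fell in libraries labelled set 1 (-0.63) and rose in Huh7 (0.51), and the J-domain protein DNAJC25 rose in libraries labelled set 1 (0.69).

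In the list of 19 other ERAD genes, 6 fell and 9 rose in libraries labelled set 1, 10 fell and 5 rose in set 2, and 8 fell and 6 rose in Huh7. EDEM3, a further mannosidase-like relative of EDEM1 and EDEM2, changed by -0.08, -1.25 and, in Huh7, -0.95, and UBE2G2, a ubiquitin-conjugating enzyme, by -0.25, -0.57 and -1.03, all called. UBE2J1, of the same enzyme class, rose in libraries labelled set 1 (0.27) and in Huh7 (0.31) and fell in set 2 (-0.56), and the ligase RNF139 rose in all 3 (0.39, 0.23 and 0.36). The lectin ERLEC1 fell in libraries labelled set 1 (-0.38) and rose in Huh7 (0.35). In the list of 20 translocation and signal peptidase genes, 4 fell and 9 rose in libraries labelled set 1, 9 fell and 7 rose in set 2, and 5 fell and 5 rose in Huh7. SRP68 and SRP14, subunits of the signal recognition particle, rose in libraries labelled set 1 (0.18 and 0.16) and fell in set 2 (-0.87 and -0.81) and in Huh7 (-1.02 and -0.45). SEC61G, the third channel subunit beside SEC61A1 and SEC61B, rose in the IMR90 sets (0.39 and 0.13) and fell in Huh7 (-0.38), and SEC11A, a signal peptidase subunit, rose in both sets (0.36 and 0.39). Of 24 COPII and export genes, 10 fell and 8 rose in libraries labelled set 1, 10 fell and 9 rose in set 2, and 11 fell and 8 rose in Huh7. KDELR3, a receptor that returns luminal proteins to the ER, fell in all 3 (-0.78, -1.12 and -0.67). TMED10, a cargo receptor, fell in set 2 (-0.76) and Huh7 (-0.80). LMAN2, a cargo lectin, fell in libraries labelled set 1 (-0.52) and in Huh7 (-0.46) and rose in set 2 (0.34). Of the remaining UPR sensors and processing enzymes, 6 of 8 fell and 1 rose in libraries labelled set 1, 4 fell and 2 rose in set 2, and 3 of 10 fell and 3 rose in Huh7. MBTPS1, the protease that makes the first cut in ATF6, fell in both sets (-0.35 and -0.31) and rose in Huh7 (0.40), and its partner MBTPS2 fell in both sets (-0.36 and -0.47). TMBIM6, an ER membrane protein that restrains IRE1, rose in libraries labelled set 1 (0.49), and CREB3 fell there (-0.33) and rose in set 2 (0.29). CREB3L3, a liver-enriched relative of ATF6, and ERN2, an epithelial relative of ERN1, were filtered out in IMR90; in Huh7 CREB3L3 fell (-2.98 ± 0.12) and ERN2 rose (1.96 ± 0.63).

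**Figure D5:**
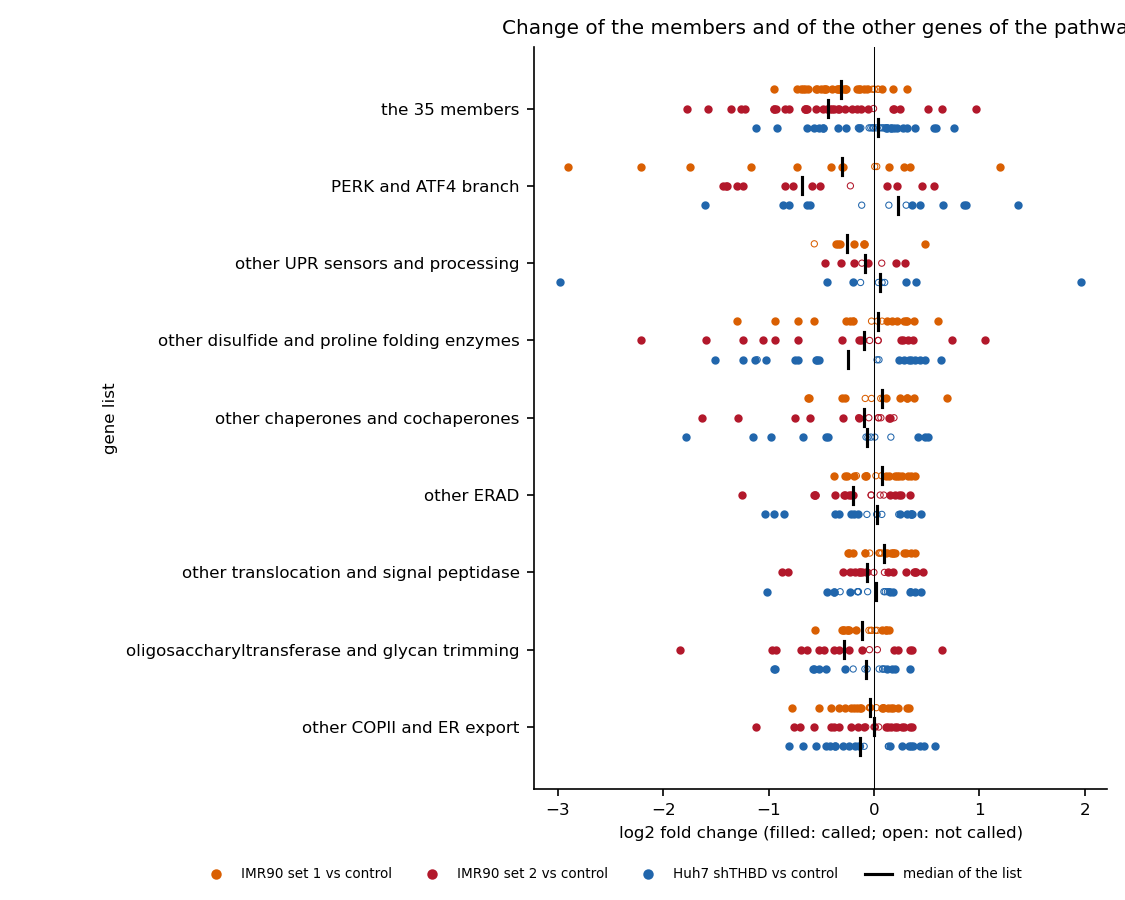
Log2 fold change of each gene tested (points; filled where called) for the 35 genes and for 8 lists of other pathway genes, in IMR90 set 1 and set 2 (as labelled) and in Huh7, each against control; the black bar is the list's median. The 35 genes have medians of -0.31 and -0.43 in the IMR90 sets and 0.04 in Huh7, while most other lists straddle 0 and the PERK and ATF4 branch is spread widest in libraries labelled set 1.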

How the data were processed

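The authors deposited raw read counts per gene for bulk total RNA, in 1 table for the 9 IMR90 libraries and 1 for the 6 Huh7 libraries. The submitters' processing notes name fastp, STAR, featureCounts and the build GRCh38. In IMR90, per the file headers, featureCounts 2.0.1 ran on GENCODE 38 and counted paired fragments, with no strand or multi-mapping option recorded. For Huh7, neither version nor annotation was given in the sources used here. Without strand, reads of overlapping genes cannot be told apart.

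Libraries were grouped by the labels. Counts were fitted with edgeR 4.0.16 (quasi-likelihood, filterByExpr, TMM scaling, R 4.3.3), all IMR90 libraries in 1 fit, the Huh7 libraries in another and all 15 in a joint fit for differences between effects; Benjamini-Hochberg adjustment ran over every gene tested. The approximate SE is the log2 fold change divided by the root of the F statistic. Floors at 3 counts cover counting error only. The 35 genes and the pathway lists were chosen with earlier results of these data known. Genes given in full in all libraries were the called genes with the highest and lowest log2 fold change of each role over the 4 group comparisons, the genes with opposite calls, and the additions named as such; other pathway genes were named as the 2 largest called changes of each list in each comparison. Alternatives were other scalings (DESeq2 1.42.0 size factors, upper-quartile, library size), the DESeq2 and voom (limma 3.58.1) tests, other filters, a replicate block, smaller fits and leaving out each library. Replicate numbers did not pair libraries, and gene positions in the tables were used only to find overlaps. A comparison of protein ends was not made, since no protein table was used here.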

Additional observations from a re-analysis of the deposited data

Results flagged for a closer look

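The difference from control of many of the 34 genes was not the same in IMR90 as in Huh7 by the joint edgeR fit of all 15 libraries. THBD was above control in libraries labelled set 1 and below it in set 2. In Huh7 it was too low to check the labels or to show a depletion. For set 2 minus Huh7, 26 of the 34 genes were called lower and 5 higher, where 22.8% of all genes were lower and 21.2% higher. Called changes of set 2 and Huh7 had the same direction in 13 of the 34 genes (38.2%) and opposite directions in 8 (23.5%). Over all genes tested in both fits these shares were 35.1% and 10.98%. The 8 genes whose calls ran in opposite directions had differences of -1.08 for HSPA5, -0.26 for PDIA3, -0.36 for CALR, -0.56 for CANX, -0.46 for UGGT1, -0.86 for SEL1L, -1.56 for HERPUD1 and -0.90 for EDEM1 on the log2 scale.

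For libraries labelled set 1 minus Huh7, 17 of the 34 genes were called lower and 4 higher, where 23.6% of all genes were lower and 23.9% higher. Called changes of libraries labelled set 1 and of Huh7 had the same direction in 13 of the 34 genes (38.2%). They had opposite directions in 9 (26.5%). Over all genes tested in both fits these shares were 19.2% and 17.8%. Genes with opposite calls had differences of -0.45 for HSPA5, -0.46 for CALR, -0.34 for CANX, -0.79 for UGGT1, -1.03 for SEL1L, -1.56 for HERPUD1, -0.93 for EDEM1, -1.04 for CREB3L1 and -0.36 for SEC61A1. Both sets of differences use the same Huh7 libraries. Hepatocyte and epithelial markers were lower and fibroblast markers higher in Huh7 shTHBD than in the Huh7 control, and their part in these differences was not tested. Line, inducer, hairpin and table differ together and cannot be told apart.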

How the results depend on the processing

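With library size alone or upper-quartile scaling, the genes called higher for the set 1 change minus the Huh7 change were 2, against 4 with TMM, and those called lower were 20, against 17; leaving out 1 library gave 2 to 4 higher, with 2 without set 1 replicate 2 and without IMR90 control replicate 3. For set 1 over set 2, 17 genes were higher and 12 lower with upper-quartile scaling and 17 and 13 with library size alone, against 21 and 10; the median of all genes moved to -0.13 and -0.17, against -0.03, and the share of calls that were higher fell to 38.9% with library size alone, against 48.8%. Library size alone turned XBP1 to -0.13 (edgeR, adjusted p = 0.00575), PDIA3 to -0.0039, ERN1 to -0.0037 and ATF6 to -0.0066 in that comparison, against 0.00, 0.13, 0.14 and 0.13 with TMM. In set 2 over control, PDIA3 turned to 0.0064 with upper-quartile scaling and 0.0227 with library size alone. The median level per length was 24.0 CPM per kb in libraries labelled set 1 and 19.5 in set 2 with TMM scaling, against 22.9 and 20.5. The cause of these shifts was not tested beyond the scaling itself.

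Over the single genes of the 6 comparisons, leaving out a library kept the call, and the direction of called genes, in most values. These were 298 of 306 in set 1 against control, 306 of 306 in set 2 against control and 303 of 306 between the sets. They were 184 of 204 in Huh7, 509 of 510 for set 2 minus Huh7 and 483 of 510 for set 1 minus Huh7. Genes that were not called could change sign, as EDEM2 did in set 2 against control (-0.11 to 0.07). In Huh7 the count of genes higher ran from 8 (without control replicate 3) to 11, and of genes lower from 9 to 11. Opposite calls of set 2 and Huh7 numbered 5 to 8 over the libraries left out. In Huh7, HSPA5 (0.11) and CALR (0.10) were not called with no filter on low counts, and HSP90B1 (-0.09) was not called with upper-quartile scaling.

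Replicate numbers did not pair libraries: deviations of same-numbered libraries correlated at -0.026 to 0.022 in IMR90 and -0.052 to -0.016 in Huh7. With a replicate block, 9 genes were higher and 9 lower in Huh7, against 12 and 10, and 16 were lower for set 1 minus Huh7, against 17; opposite calls of set 2 and Huh7 were 6, against 8, and the other counts of the 35 genes called in single comparisons did not change. At 18256773 to 25236178 counts per library, DERL3 had at most 2 counts and could not be tested.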
